A study of Drosophila melanogaster with 4 samples.

Results

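At 25 h after pupariation, a set of genes was higher in cone cells of the Drosophila eye than in larval or adult cone cells. The genes described here were chosen by their measured values. A gene was called transient when its level in the pupal cone cell (CC) library was at least 4-fold above that of the larval and of the adult CC library. It was called a dip gene when its pupal level was at least 4-fold below both. Of 14935 genes in the table, 363 were transient and 16 were dip genes. Levels are log2 normalised read counts per gene, in which 0 marks a gene listed at 0. For the fold steps, the counts were taken back to linear units, 4 units were added and the log2 was taken again, so a step of 2 is a 4-fold difference on that scale. A transient gene also had to reach 32 units in pupal CCs, and a dip gene 32 units in both other CC libraries.

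CCs, also called Semper cells, are the 4 non-neuronal cells that sit above the photoreceptors (PRs) of each ommatidium, the unit eye. They are recruited in the larval disc, take their place in the pupal epithelium while the ommatidial lattice is being refined, later secrete the lens, and send processes down along the PRs, which they support in a glia-like way. The pupal time point lies before the lens is laid down and within the period in which PR axons choose partners in the brain.

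RNA was measured in 4 libraries, 1 each from the CCs of larvae, pupae and adults and 1 from adult PRs, with the eyes of 45 to 75 animals in each. The larval CCs (from wandering larvae) and the pupal CCs (25 h at 25 °C) were sorted by GFP from sev-; prosPSG-GFP; TM2/TM6B animals, which lack the R7 PRs in which the prosPSG enhancer is also active. The adult CCs came from yw67; sp/CyO; TM2/TM6B flies of 1 to 2 days and were sorted by antibody, Fas3-positive against 22C10. The 22C10 antibody served to mark PRs and the interommatidial bristle. The PRs were sorted as RFP-positive cells without GFP, from retinas of prosPSG-GFP adults. The pupal against larval step therefore compares stages within 1 genotype and 1 sort, whereas stage, genotype and sort cannot be told apart in the pupal against adult step. With 1 library per stage there was no replicate and no test, and every difference below is a difference between libraries.

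Low values lay in steps, from which 1 read was worth 0.597, 0.633 and 0.854 units at the larval, pupal and adult stage and 1.66 units in PRs. The totals then corresponded to about 2480000, 2890000, 3810000 and 1600000 reads assigned to genes, and 32 units to about 51 reads in pupal CCs. A gene listed at 0 could still have had 1 read in a CC library. The pupal library had a value above 0 for 12649 genes, against 9344 for larval, 11557 for adult CCs and 8997 for PRs.

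The CC label was checked against 10 marker genes, of which some were higher in pupal CCs than in PRs and some were not. The cone cell transcription factor gene ct had levels of 9.64 (larval) and 11.58 (pupal), with PRs at 8.11. The adhesion protein gene Fas3 was at 9.51 and 10.60, with PRs at 7.33, and pros at 10.43 and 9.72, with PRs at 5.05. An enhancer of pros itself drove the reporter whose presence defined these CCs and whose absence was required of PRs. The pros difference thus follows in part from the sort and is no independent check of the label. Markers other than ct, pros and Fas3 did not stand above PRs. sv (the fly Pax2) was at 8.39 and 8.99 with PRs at 9.32, and eya at 9.44 and 8.47 with PRs at 8.89. lz was at 8.24 and 6.27 with PRs at 6.82. The lens genes of the list were low, with Cry (Crys, the lens crystallin) at 2.15 and retinin at 0 in pupal CCs against 12.88 and 17.52 in adult CCs. Of 26 PR markers, 5 were listed at 0 in pupal CCs, namely ninaE, Rh3, Rh5, Rh6 and Arr2, and the summed level was 3811 units, close to the 3891 of larval and 3311 of adult CCs and far under the 456720 of PRs. Opsins and Arr2 are late genes of PR differentiation, so their absence does not bear on young PRs. The neuronal gene elav was at 10.87 in pupal CCs and 10.91 in PRs, and the 30 genes of neuronal identity and cytoskeleton summed to 35133 units in pupal CCs, 22027 and 23787 in larval and adult CCs and 53517 in PRs. The part of PR precursors in the values below was not tested.

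The transient genes made up 2.43% of all genes in the table and 5.17% of the 7028 genes that reached 32 units in any CC library. Against larval CCs alone, 693 genes were higher in pupal CCs by the same measures, 4.64% of the table, and against adult CCs alone 913 were, 6.11%. Over the 7028 genes the median pupal level was 0.26 above the larval and -0.06 from the adult level on the log2 scale. The values had been normalised between libraries beforehand, and a median holds no spread. How alike the libraries were therefore cannot be read from these medians. The step to the nearer stage had a median of 2.64 over the 363 genes, was 3 or more in 109 and 5 or more in 8, and reached 8.45. The nearer stage was larval in 196 and adult in 158, and 9 genes were listed at 0 in both. Not all were low at the other stages. In larval CCs 102 of the 363 reached 32 units, 28.1% against 73.0% of the 7028 genes. In adult CCs 68 did, 18.7% against 78.0%, and the lower shares follow in part from the rule. Together the 363 genes took 9.56% of all units in pupal CCs, against 1.09% at the larval and 0.264% at the adult stage and 6.39% in PRs.

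**Figure D1:**
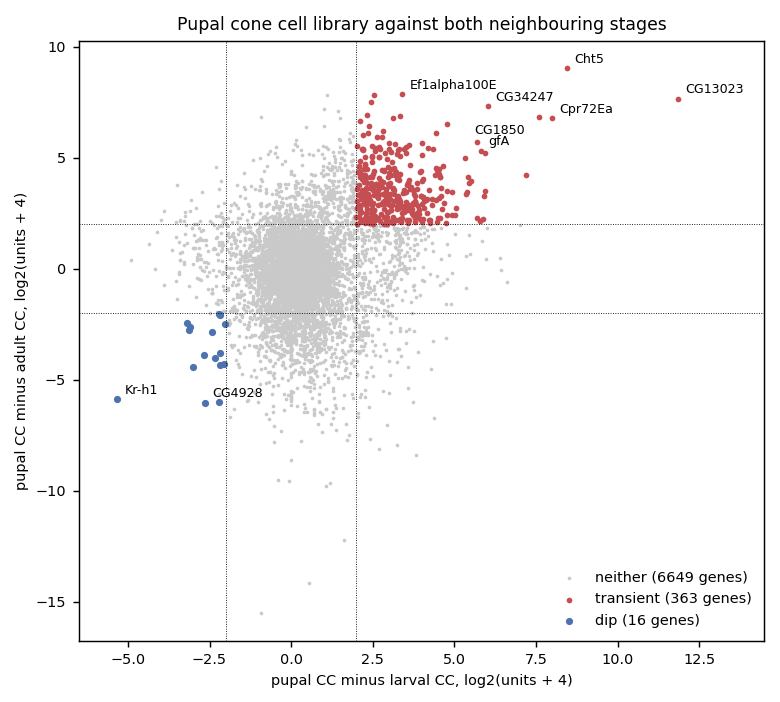
Each point is 1 of the 7028 genes that reached 32 units in a CC library, plotted by its pupal minus larval difference (x axis) and pupal minus adult difference (y axis) on the log2(units + 4) scale, with dotted lines at the 4-fold limits. The 363 transient genes fill the upper right corner, led by Cht5 and CG13023, and the 16 dip genes lie sparsely in the lower left, led by Kr-h1.

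The limit cut through a continuous range. The genes just inside were sr at a step of 2.00, Est-P at 2.00, CG31030 at 2.01 and 7B2 at 2.01. Just outside were fne, CG14838, Sox102F and CG9279, each at 1.99. The neuronal RNA-binding protein gene fne is an example of what the rule leaves out, with levels of 7.84, 9.85 and 6.03 in larval, pupal and adult CCs.

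The 5 members with the highest steps were Cht5, CG13023, CG1850, Cpr72Ea and CG34247, of which Cht5 and Cpr72Ea are genes of the cuticle. Cht5 encodes a chitinase, an enzyme that cleaves chitin, the polysaccharide of insect cuticle. Its levels were 4.39, 13.09 and 3.64 in larval, pupal and adult CCs and 3.73 in PRs. It was thus low in 3 libraries and high in 1, with a step of 8.45 to the nearer stage. No other chitinase did the same. Cht3, listed today as Cht10, was lower at each later stage with 10.42, 9.24 and 6.72, and Cht6 was level at 9.02, 9.04 and 9.63. Cht7 was high in adult CCs, with 5.86, 5.73 and 9.56. Of 23 measured genes of chitin synthesis and modification, Cht5 was the 1 transient member and Gasp, which encodes a chitin-binding protein, the 1 dip gene. The transient share of that list, 4.35%, was near the 5.17% of all measured genes. The chitin synthase gene kkv went from 8.74 in larval to 7.14 in pupal and 7.01 in adult CCs, and the deacetylase genes serp and verm were likewise highest in larval CCs, serp with 8.90, 6.80 and 4.36 and verm with 9.79, 7.83 and 5.44.

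CG13023 has no known role here and was the member with the largest pupal against larval difference, 11.85. Its levels were 2.06, 14.88 and 7.17 in larval, pupal and adult CCs and 5.32 in PRs. CG1850, also unnamed, was at 5.01, 12.77 and 5.85 in the CC libraries and 6.12 in PRs. Both were above 12 in pupal CCs and below 8 in every other library. The gene directly before Cht5 in the RefSeq order, CG9312, was transient as well at 1.26, 7.59 and 5.01, with PRs at 0.

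Cpr72Ea encodes a cuticle protein of the chitin-binding CPR family. It was listed at 0 in larval CCs and PRs, at 2.36 in adult CCs and at 9.97 in pupal CCs. The family has 70 genes in the table, of which 11 reached 32 units in a CC library and 3 were transient. That is 27.3% of the 11, against 5.17% of all such genes. In pupal CCs 9 reached 32 units, in larval CCs 2 and in adult CCs 5. Some were thus counted only through the library in which they were high. Cpr97Eb was at 2.43, 7.20 and 4.97 in larval, pupal and adult CCs, and Cpr76Bc at 0, 5.68 and 2.90. The family members of the adult lens were not among them: Cpr72Ec, 2 genes further along chromosome 3L than Cpr72Ea, was at 0, 3.65 and 10.71, and Cpr49Ae at 0, 5.71 and 14.23. Neighbouring members of 1 cuticle gene cluster were therefore highest at different stages.

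The zona pellucida (ZP) proteins of the apical matrix tie the epithelial surface to its cuticle. Of 11 measured, zye and mey were transient. zye was at 0.84, 9.72 and 5.36 in larval, pupal and adult CCs and at 0 in PRs. mey was at 4.87, 7.34 and 4.43, with PRs at 0.73. neo and nyo had the same shape with pupal levels of 8.83 and 6.34, but their larval levels of 6.86 and 4.71 were within 4-fold. dp (dumpy), the giant ZP protein, was instead higher at each stage than at the one before, with 9.72, 12.19 and 16.59. nompA, a ZP gene of the caps of sensory dendrites that stands among the bristle markers, was transient at 1.88, 6.84 and 4.39.

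Mucins, heavily glycosylated proteins of secreted and luminal matrix, gave 4 transient genes among 8 measured. Muc12Ea was at 2.43, 7.76 and 3.09 in larval, pupal and adult CCs, and Muc96D at 1.41, 8.52 and 6.29. Muc68Ca was at 2.65, 7.80 and 5.61, and Muc26B at 0, 5.57 and 2.36. In PRs 3 of the 4 were listed at 0 and all were at least 4-fold under pupal CCs. The other mucins stayed high into the adult CCs, as Muc30E did with 0, 8.59 and 9.20. Of 13 mucin genes listed, 8 reached 32 units in pupal CCs, 1 in larval CCs and 6 in adult CCs. The mucin-like matrix gene tnc (tenectin), outside that family by name and picked after its values were seen, was at 9.46, 11.71 and 6.60.

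**Figure D2:**
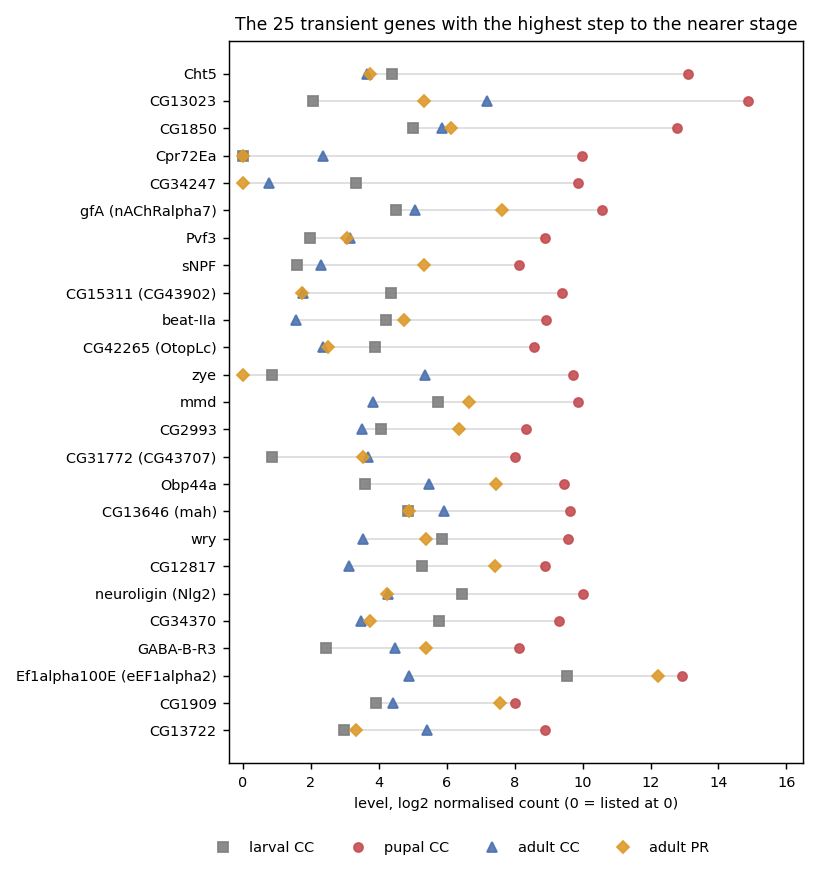
Level (log2 normalised count) in each of the 4 libraries for the 25 transient genes with the highest step to the nearer stage among those with a pupal CC level of 8 or more, in order of that step. The pupal CC point lies furthest right in every line, while the PR point lies among the other CC points for genes such as Cht5, Cpr72Ea and zye and close to the pupal point for Ef1alpha100E and CG1909.

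A second and larger body of transient genes encodes surface proteins by which neurons recognise each other. The dpr genes encode immunoglobulin receptors that bind DIP receptors on partner cells, and the beat genes encode receptors that bind side proteins. Of the 17 dpr genes that reached 32 units in a CC library 13 were transient (20 in the table), against 5.17% of all such genes. All 17 reached the minimum in pupal CCs but 5 in larval and 2 in adult CCs, so most were counted through the library in which they were high, and the count is a description of the family. The same held for the beat genes, with 12, 3 and 0 at the minimum in pupal, larval and adult CCs, the DIP genes with 8, 1 and 1, and the nicotinic subunits with 9, 1 and 3. Among the beat genes 7 of 12 were transient, among the DIP genes 4 of 9 and among the 8 side genes 4. The lists of the side and kekkon proteins, neuroligins, sodium leak channel, GABA-B receptors, calcium channel subunits, otopetrin-like channels, amine receptors, neuropeptides and their receptors, glial effectors, juvenile hormone genes and brain neuron genes were drawn up after values had been seen. Their counts restate that choice and are no independent observation. Under a scaling to equal library totals 12 dpr, 6 beat, 5 DIP and 3 side genes were transient. With 16 units added the numbers were 8, 3, 4 and 3, and with a minimum level of 8 they were 2, 1, 0 and 3, most pupal dpr, beat and DIP levels being under 8.

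dpr17 had the highest step of its family, with 0.84, 7.06 and 1.91 in larval, pupal and adult CCs and 3.73 in PRs. dpr13 was at 4.46, 7.72 and 2.49, with PRs at 5.49. dpr12 was already well above the minimum in larval CCs, with 7.30, 9.52 and 3.78 and with PRs at 2.73. In 9 of the 13 the pupal CC level was also at least 4-fold above that of PRs.

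beat-IIa was at 4.21, 8.92 and 1.57 in larval, pupal and adult CCs and 4.73 in PRs. Its neighbour in the family, beat-IIb, was at 3.43, 6.86 and 2.09, and beat-IV at 3.58, 7.25 and 2.11, both low in PRs as well (1.73 and 0). All 7 transient beat genes were at least 4-fold above PRs, and 4 of them were listed at 0 there. The partners shared the shape. CG12950 (side-VII) was at 6.66, 9.78 and 4.24 in the CC libraries, CG34113 (side-III) at 6.21, 9.27 and 3.07, and CG34114 (side-VI) at 4.35, 7.67 and 4.62. The exception was CG34371 (side-V), highest in adult CCs with 7.69, 7.85 and 9.78.

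Among the DIP genes, CG42343 (DIP-beta) was listed at 0 in larval and adult CCs and at 5.75 in pupal CCs. CG31646 (DIP-theta) was at 3.26, 7.26 and 2.87, CG31708 (DIP-zeta) at 2.26, 6.86 and 3.04, and CG14521 (DIP-gamma) at 4.11, 7.58 and 0. All 4 were at least 4-fold above PRs as well, and theta and zeta were listed at 0 there. CG42368 (DIP-epsilon) went the other way, with 3.72, 4.96 and 9.22.

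Other recognition molecules were fewer. Of 36 measured axon guidance genes 4 were transient: Dscam4, Dscam2, Con and Drl-2. Dscam4, an immunoglobulin receptor, was at 7.55, 10.48 and 7.22, and its relative Dscam2 at 10.32, 12.64 and 5.62. Of 26 adhesion genes known from retinal patterning 5 were transient. fred (friend of echinoid) was at 4.62, 7.64 and 4.54, klg at 7.17, 9.66 and 5.95, CadN2 at 2.26, 6.48 and 3.94, and Con (connectin) at 5.36, 7.69 and 2.86. The fifth, Tl, which encodes the Toll receptor, was at 7.59, 9.77 and 7.53. The kekkon genes, which encode leucine-rich repeat proteins, gave 4 of 6, with kek2 at 6.44, 9.19 and 3.77 and kek4 at 2.96, 6.50 and 3.09. Their best known members kek1 and kek5 were not transient, kek1 with 9.76, 9.41 and 7.91.

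**Figure D3:**
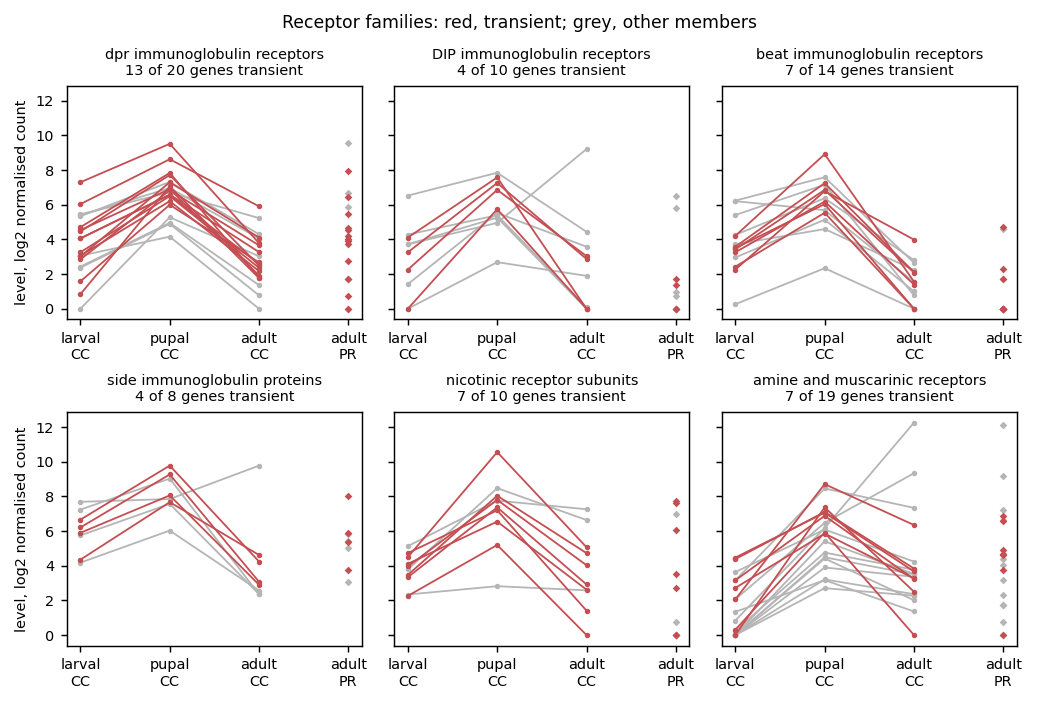
Level (log2 normalised count) of every gene of 6 receptor families in larval, pupal and adult CCs (points joined by lines) and in adult PRs (diamonds, not joined), with transient members in red and the others in grey. Most dpr, beat, side and nicotinic members peak in pupal CCs, while 1 DIP gene (DIP-epsilon), 1 side gene (side-V) and some amine receptors are highest in adult CCs.

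Receptors and channels for transmitters formed the next group. Of 9 measured nicotinic acetylcholine receptor subunits 7 were transient. gfA (nAChRalpha7) was at 4.50, 10.56 and 5.07 in larval, pupal and adult CCs and 7.64 in PRs, a step of 5.33 to the nearer stage. nAcRalpha-96Ab (nAChRalpha2) was at 3.34, 7.37 and 2.92, with PRs at 0. nAcRbeta-64B (nAChRbeta1) was at 3.96, 7.80 and 4.03, and nAcRalpha-34E (nAChRalpha5) at 3.47, 8.04 and 4.73. The measured subunits outside the rule were nAcRalpha-30D (nAChRalpha6) with 5.13, 7.76 and 7.26 and nAcRbeta-96A (nAChRbeta2) with 3.79, 8.48 and 6.64, both held within 4-fold by the adult level.

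Over the 33 voltage- and ligand-gated channel genes measured 13 were transient, and under equal library totals 18. Besides the nicotinic subunits they included the glutamate-gated chloride channel GluClalpha at 5.35, 9.52 and 6.21, and the potassium channels Shaw at 3.25, 6.88 and 0.74 and SK at 4.50, 8.46 and 5.44. The median over the 33 was 3.39 above larval and 1.75 above adult CCs, and 26 of them were at least 4-fold above the larval level but 13 above the adult one. Of the 33, 32 reached 32 units in pupal CCs, 11 in larval and 21 in adult CCs. Some were thus counted only through the library in which they were high. Of the voltage-gated calcium channel, the pore subunit gene cac was at 5.39, 9.52 and 6.52, Ca-beta at 5.97, 8.94 and 5.36 and stj, an alpha2-delta subunit gene, at 6.61, 8.93 and 5.73. These 3 were higher still in PRs, at 11.61, 10.17 and 10.39.

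The sodium leak channel, which sets resting excitability, was represented by its pore gene na and by unc79 and CG18437 (unc80), all of them transient and listed together after their values were seen. unc79 was at 3.03, 9.50 and 6.13, CG18437 at 3.66, 7.37 and 4.08, and na at 5.91, 8.33 and 4.76. The GABA-B receptor genes, likewise listed after their values were seen, were transient too. GABA-B-R3 was at 2.43, 8.12 and 4.47, GABA-B-R1 at 3.66, 6.93 and 4.55, and GABA-B-R2 at 5.98, 8.07 and 0.88. The call for GABA-B-R2 was marginal, at a step of 2.02 that became 1.74 under equal library totals. Among the otopetrin-like proton channel genes, CG42265 (OtopLc) was at 3.89, 8.56 and 2.37 and its chromosomal neighbour CG42492 (OtopLa) at 8.92, 11.48 and 8.81.

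Of 19 amine and muscarinic receptor genes 12 were measured and 7 of those were transient. The 12 all reached 32 units in pupal CCs, none did in larval and 4 did in adult CCs, so they were counted through the library in which they were high. CG7918 (mAChR-B) was listed at 0 in larval CCs and PRs, at 7.37 in pupal CCs and at 2.50 in adult CCs. oa2 (Octbeta1R), an octopamine receptor gene, was at 0.31, 5.91 and 0, with PRs at 6.85. 5-HT1A was at 3.16, 6.88 and 3.23, and mAcR-60C (mAChR-A) at 4.38, 7.11 and 3.84. Of 10 measured neuropeptide receptor genes 4 were transient. In pupal CCs 7 of the 10 reached 32 units, in larval CCs 1 and in adult CCs 5, so the same limit holds. Takr99D (TkR99D), a tachykinin receptor gene, was at 0, 6.14 and 1.27, and Dh31-R1 (Dh31-R) at 0.38, 6.17 and 2.60.

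Presynaptic genes were transient as well. Of 29 measured genes of synaptic vesicles and active zones 9 were transient. Nlg2, listed as neuroligin, encodes an adhesion protein of the postsynaptic side and was at 6.45, 10.02 and 4.27 in the CC libraries and 4.24 in PRs. Rim, an active zone gene, was at 6.31, 10.18 and 7.76, with PRs at 12.10. Nrx-1 (neurexin) was at 5.98, 8.93 and 3.17, and VGlut, the vesicular glutamate transporter gene, at 6.23, 8.98 and 2.90. Only Nlg2 of the 9 was at least 4-fold above PRs, and cpx, Syn and cac were at least 4-fold below them. The median difference over the 29 was 1.75 to larval and 2.40 to adult CCs. Of 29 measured general neuronal genes 1 was transient, 3.45% against 5.17% of all measured genes. Yet 18 were at least 4-fold above adult CCs (median 2.77) and 5 above larval CCs (median 0.95). With a 2-fold step 8 were transient. The 1 gene was Rbp9, an elav relative, at 5.70, 10.40 and 7.07, whereas elav itself was at 10.75, 10.87 and 8.74 and futsch at 10.31, 10.49 and 6.58.

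Genes of brain neurons were also higher in the pupal library. Over 15 genes of brain neuron types and transmitters (a list drawn up after values had been seen) the summed level was 2434 units in pupal CCs, against 902 at the larval and 366 at the adult stage and 1162 in PRs. In pupal CCs 13 of the 15 reached 32 units, against 5 in larval and 3 in adult CCs, and none was listed at 0. Most of the pupal sum came from ap (707 units), which is also among the fate factors that the study followed, VGlut (507 units), which is also on the synaptic list, and VAChT (472 units). Of the 13 measured genes 4 were at least 4-fold above larval CCs. ap was at 8.40, 9.47 and 5.05, VAChT at 7.82, 8.88 and 4.94, and bsh, a gene of medulla neurons, at 4.54, 5.75 and 1.36. Vsx1 was at 5.34, 6.14 and 0. VGlut and Tbh of this list were transient, Tbh with 1.5, 5.48 and 1.77. Brain, lamina and antennal tissue had been dissected away before sorting, by the study's methods. The part of such cells in the receptor and synapse values was not tested, and in sorted bulk samples more cells of a type and more RNA per cell cannot be told apart.

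**Figure D4:**
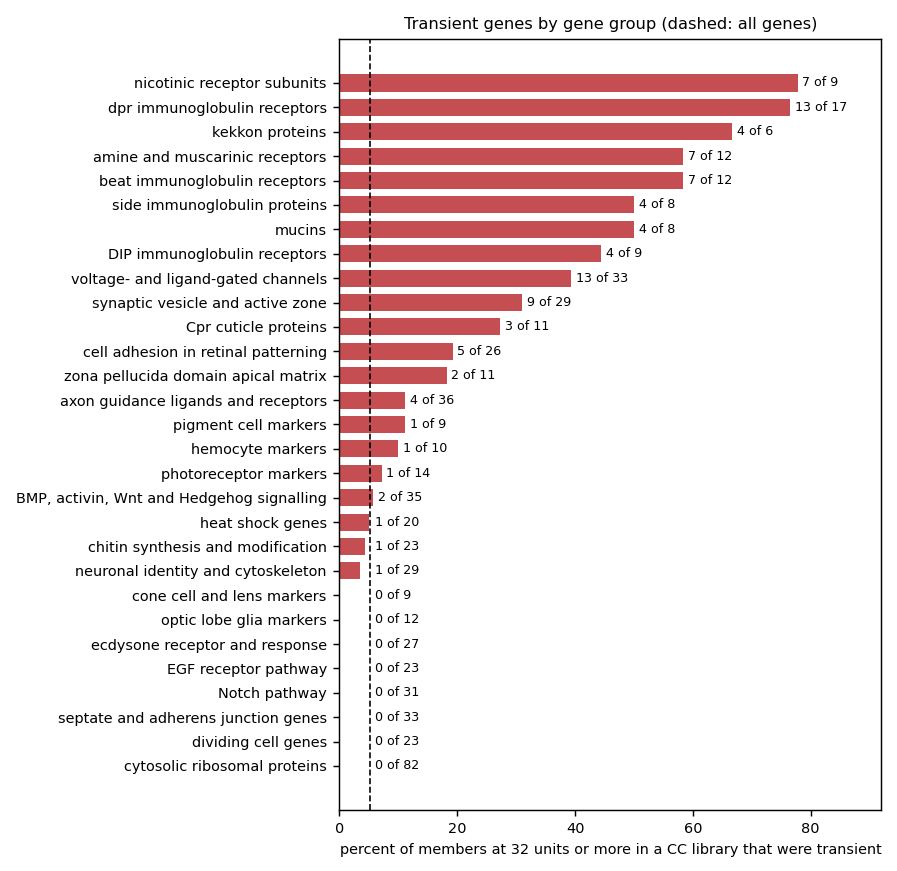
Percent of the measured members (those with at least 32 units in a CC library) of gene groups with 6 or more of them that were transient, with the counts beside each bar (most dpr, beat, DIP and nicotinic genes reached the minimum in pupal but not in larval CCs) and a dashed line at the 5.17% of all such genes. Nicotinic, dpr and kekkon genes stand at the top and the ribosomal, junction, cell cycle, Notch, EGF receptor, ecdysone, glia and cone cell lists at 0. Not every group of that size is shown. The kekkon, side and amine receptor lists were drawn up after values had been seen.

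Ligands and their receptors appeared in a few cases. Pvf3, a PDGF- and VEGF-related growth factor gene, was at 1.96, 8.90 and 3.14 in larval, pupal and adult CCs and 3.05 in PRs. Its relatives did not share the shape, Pvf2 with 2.06, 2.15 and 0.83 and Pvf1 with 1.26, 2.67 and 6.02. The receptor gene Pvr was at 6.89, 6.04 and 9.18. sNPF, which encodes the short neuropeptide F precursor, was at 1.58, 8.12 and 2.30, with PRs at 5.32, and Nplp1 at 3.72, 6.13 and 2.77. They were the 2 transient genes among 5 measured neuropeptide genes. Of 35 measured BMP, activin, Wnt and Hedgehog genes 2 were transient, 5.71% and near the 5.17% of all measured genes. Actbeta (an activin) was at 6.38, 8.57 and 5.28 and Wnt10 at 1.26, 5.35 and 0.65. The growth factor gene miple, a midkine and pleiotrophin relative, was at 9.56, 12.03 and 4.23, the receptor tyrosine kinase gene Alk at 7.24, 9.55 and 4.89, and Ret and mun (Gfrl, related to the GDNF receptors of vertebrates) at 2.06, 5.14 and 2.45 and at 4.11, 8.71 and 5.47. These last 4 were picked after their values were seen.

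No gene of the 31 measured in the Notch pathway, the 23 of the EGF receptor pathway or the 27 of the ecdysone response was transient, where 5.17% of all measured genes were, so for lists of these sizes a count of 0 is near that share. The ecdysone genes took several courses: br was at 12.80, 9.68 and 7.05, ftz-f1 at 6.82, 5.69 and 9.31 and Eip78C, which came nearest in shape, at 5.89, 7.88 and 5.06. Of 82 measured cytosolic ribosomal protein genes, 34 proteasome genes, 33 junction genes and 23 genes of dividing cells none was transient. By the annotation terms in the table, 4.49% of measured genes with any term were transient, against 16.3% of those in the extracellular region, 17.1% of G protein-coupled receptors, 14.7% of chitin-binding genes, 1.51% of nuclear and 0.667% of mitochondrial genes.

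DNA-binding factors stood at 3.16% with 8 of 253. The 8, named after their values were seen, were kn, vvl, Sox21b, FoxP, fd102C, CG34340 (Drgx), CG11294 and dys. FoxP was at 4.90, 8.23 and 3.20, vvl at 3.97, 7.42 and 3.47, and kn at 5.19, 7.56 and 4.40. Sox21b was at 5.18, 7.57 and 2.64. Of the 8, 5 were listed at 0 in PRs. The factors that the study followed in cone and glial fate were not transient by this rule. The study called several of them transient in a different sense, for expression at the larval and pupal stages and not in adults. pros was at 10.43, 9.72 and 4.28, sv at 8.39, 8.99 and 13.62, ap at 8.40, 9.47 and 5.05, and Oli at 5.81, 5.54 and 1.29. Hey, at 7.61, 3.87 and 0, and dpn, at 8.72, 4.50 and 0.77, were already lower in pupal than in larval CCs. repo, a homeobox gene expressed in most glia, was at 3.90, 5.58 and 0.77, HLHm5 at 5.49, 4.04 and 1.36 and gcm at 5.01, 3.99 and 0.36. Rx (1.58, 1.63 and 2.05) and Sox100B (0, 1.82 and 2.51) stayed under 32 units in every CC library.

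Among the 12 glial effector genes that the study tested, 9 were measured, of which 3 were transient and 1 was a dip gene. Glut1, a sugar transporter gene, was at 7.44, 9.62 and 7.0, and Eaat2, an amino acid transporter gene, at 5.21, 8.08 and 5.49. The beta subunits of the sodium pump took opposite courses. nrv3 was at 7.91, 10.34 and 7.19 in larval, pupal and adult CCs, and nrv2 at 9.60, 6.42 and 9.24. The pupal library was thus the low one for nrv2 and the high one for nrv3. The alpha subunit gene Atpalpha went from 11.00 to 12.14 and 12.69. In PRs nrv3 was at 12.74 and nrv2 at 9.11. Eaat1 was at 6.56, 5.72 and 6.75, and Gs2, Irk2 and Ir (Irk1) had their highest CC level in the adult. Under equal library totals the steps of Glut1 and nrv2 were 1.86 and -1.95, on the log2 scale and just short of the limit.

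Single members of other marker lists were transient. The lists in this paragraph held from 9 (pigment cells) to 20 (heat shock) measured genes. With 5.17% of all measured genes transient, 1 member in lists of these sizes is near that share. In the glycolysis and sugar supply list it was Glut1, and in that of pigment cells cn, of the ommochrome pathway, at 2.26, 5.48 and 2.53. Pxn (peroxidasin), from the hemocyte list, was at 2.58, 7.81 and 2.94. Hml and nimC1 of the same list were at 1.26, 6.68 and 7.23 and at 0, 3.67 and 5.13, highest in adult CCs, and the list's summed level was nearly flat at 1666, 1698 and 1995 units. W (hid), a gene that triggers programmed cell death, was at 6.23, 8.60 and 6.36, the 1 transient gene of 12 measured death regulators. eys, which encodes a secreted protein of the space between rhabdomeres, was at 5.56, 9.45 and 6.33, with PRs at 12.07. Hsp67Bc, at 6.51, 8.65 and 0, was the 1 member of 20 heat shock genes, and lost the call under both other scalings.

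Ef1alpha100E (eEF1alpha2) had a PR level close to that of pupal CCs. It encodes 1 of the elongation factors that bring aminoacyl-tRNA to the ribosome and was at 9.53, 12.94 and 4.90, with PRs at 12.22. The companion gene Ef1alpha48D was lower at each later CC stage instead, with 14.21, 12.84 and 12.68, and was at 11.31 in PRs.

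The rule did not use the PR library. Of the 363 transient genes 94 were listed at 0 in PRs, 25.9%, against 8.03% of the 7028 genes, and 155 reached 32 units there, 42.7% against 64.3%. The pupal CC level was at least 4-fold above the PR level for 224 of them, 61.7%, against 25.0% of the 5783 genes with at least 32 units in pupal CCs. The members were chosen for a high pupal CC value, which is also 1 side of this difference, so the higher share follows in part from the choice. The other 139 comprised 118 within 4-fold and 21 at least 4-fold higher in PRs. Those 21 were led by genes of signalling and synapse, such as Ggamma30A, the G protein gamma subunit of phototransduction, at 7.0, 11.36 and 8.48 in the CC libraries and 15.56 in PRs, cpx (complexin) at 7.56, 10.51 and 8.23 with PRs at 14.48, and qvr at 5.10, 9.49 and 7.24 with PRs at 13.02. A transient gene in the CC series was therefore not always low in other retinal cells.

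At the other end, 63 of the 363 were under 8 units in all 3 other libraries and 7 were listed at 0 in all of them. CG18735 was at 7.68 in pupal CCs, Obp56a at 6.59, CG13053 at 6.40, CG18673 (CAH5) at 5.95, CG12644 at 5.55, CG4409 at 5.29 and Vha100-5 at 5.10. Obp56a encodes a secreted odorant-binding protein and CG18673 a carbonic anhydrase. A relative of the former, Obp44a, was at 3.58, 9.44 and 5.47, with PRs at 7.46, and was transient too. The chemoreceptor genes Or83a (0, 6.74 and 2.56) and Ir94e (0, 5.90 and 1.36) were also 0 in PRs. Values above 0 were more frequent in the pupal library across both of their families. Of 60 odorant receptor genes 53, 6, 20 and 52 were listed at 0 in larval, pupal and adult CCs and PRs. Of 63 ionotropic receptor genes 53, 4, 9 and 46 were. For each gene named in this paragraph, a listed 0 in larval or adult CCs may stand for 1 read.

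Some transient genes sat side by side. With 2.43% of the table transient, some neighbours are met without any grouping, and grouping was not tested. In the RefSeq order of the genes in the table there were 12 runs of neighbours, of which 11 were pairs. The run of 3, on chromosome 3L, was CG13053, CG34247 and CG13071. CG34247 was at 3.34, 9.85 and 0.77 in larval, pupal and adult CCs and at 0 in PRs, CG13053 at 0, 6.40, 0 and 0, and CG13071 at 3.67, 7.85, 5.23 and 6.52. The 48 genes from this run to Cpr72Ec hold both Cpr72Ea, the transient cuticle gene, at place 46, and the adult genes Nplp3 at place 27 and retinin at place 37. Nplp3 was at 0, 0.89 and 16.72 in the CC libraries. In that stretch 4 genes were transient, 6 were at least 4-fold higher in adult than in pupal CCs, and 14 were listed at 0 in all 4 libraries. The stretch was picked after its values were seen. Pairs included Eaat2 with GABA-B-R3, na with Muc12Ea, CanB with SK and Glut1 with CG12038.

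Transient and dip genes were both longer than measured genes as a whole. By the Ensembl annotation of assembly BDGP6, the median span from the start to the end of the gene was 10.4 kb for the 329 transient genes with a value and 3.70 kb for the 6554 of the 7028 measured genes that have one. It was also 10.4 kb for the 15 dip genes with a value, so length was not particular to the transient genes. Of measured genes under 5 kb 2.64% were transient, of those of 5 to 20 kb 5.83%, of those of 20 to 50 kb 14.2% and of those over 50 kb 18.7%. The longer genes as a whole were also higher in pupal CCs. Over 50 kb the median of all measured genes was 1.18 above larval and 0.65 above adult CCs, against 0.20 and -0.06 under 5 kb. The gene groups above were set against all measured genes and not against genes of like span. All 4 libraries were amplified from sorted cells, and the part of RNA length or quality in these values was not tested.

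The dip genes were few, 0.107% of the table. Kr-h1 encodes a zinc finger factor that juvenile hormone induces and that holds back metamorphosis. It was at 8.86, 2.93 and 9.40 in larval, pupal and adult CCs and 9.71 in PRs, and so was high in 3 libraries and low in 1, with a step of -5.33. Jheh2, which encodes a juvenile hormone epoxide hydrolase, an enzyme that breaks the hormone down, was at 7.33, 4.05 and 8.78, with PRs at 6.81. These were the 2 dip genes of 7 measured genes of juvenile hormone response and metabolism, in a list built after both were known. The receptor genes Met and gce were not low in pupal CCs, Met with 5.87, 6.18 and 7.64 and gce with 4.04, 6.91 and 9.01, and Jheh1 went from 0.57 to 4.16 and 7.62.

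**Figure D5:**
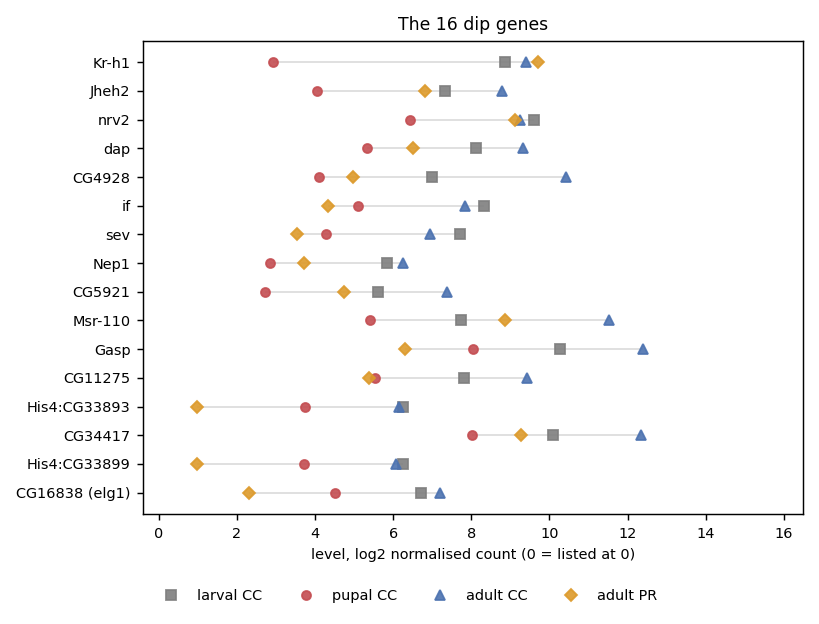
Level (log2 normalised count) of the 16 dip genes in the 4 libraries, in order of their step. The pupal CC point lies left of the larval and adult CC points in each, and Kr-h1 shows the widest gap, between 2.93 in pupal and 8.86 in larval CCs.

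dap, the fly CDK inhibitor of the p21 and p27 family, was at 8.12, 5.34 and 9.33, with PRs at 6.51. if, which encodes an integrin alpha subunit, was at 8.33, 5.09 and 7.85, the 1 dip gene of 20 measured basement membrane and integrin genes. Gasp was at 10.26, 8.05 and 12.39, and Msr-110 at 7.73, 5.41 and 11.52. CG4928 had the largest pupal against adult difference, -6.04, with 7.0, 4.09 and 10.43. CG11275 was at 7.81, 5.53 and 9.42, CG34417 at 10.08, 8.02 and 12.35, Nep1, a neprilysin-type peptidase gene, at 5.83, 2.86 and 6.25 and CG5921 at 5.62, 2.72 and 7.39. Most dip genes were thus higher in adult than in larval CCs, while nrv2, if, sev and the His4 genes listed below were highest in larval CCs.

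sev, the receptor tyrosine kinase gene of R7 fate, was at 7.72, 4.28 and 6.95, with PRs at 3.54. The larval and pupal CCs carried a sev mutation and the adult CCs did not, so the genotype and the stage cannot be told apart in its adult step, while the larval and pupal libraries share the mutation. The histone genes His4:CG33893 (6.24, 3.75 and 6.15) and His4:CG33899 (6.24, 3.71 and 6.06) are near-identical copies between which reads cannot be assigned with certainty, and CG16838 (elg1), at 6.72, 4.51 and 7.19, was the gene nearest the limit. Just outside were neb at -1.98, CG3303 at -1.97, His4:CG31611 at -1.94 and CG11655 at -1.91. In PRs, which the choice did not use, 8 of the 16 reached 32 units, and 4 were also at least 4-fold above pupal CCs: Kr-h1, Msr-110, nrv2 and Jheh2.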

How the data were processed

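The deposited values were log2 normalised read counts per gene, in a table of 14959 rows. The authors mapped the reads to the Drosophila melanogaster build dm3 (TopHat2 2.0 and Bowtie 1.0 are in the submitters' processing notes) and scaled them by TMM to whole-animal data, using Avadis NGS. Genes are listed by Ensembl identifier. A normalised count of 1 or less was listed as 0, and no correction for gene length was made. Levels were therefore compared between libraries and not ranked between genes. Repeat rows (24, all at 0) were left out. Values were converted to linear units, 4 units were added and the log2 taken again. Only 38.3% to 64.9% of values under 30 units lay within 0.02 units of a whole read, so whole reads were not recovered, no count model was run, and the read totals given are estimates.

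The rule and lists were chosen with earlier results of these data known. Named genes were the 25 transient genes with the highest step among those with a level of 8 or more in pupal CCs, 15 dip genes, up to 4 members per list, the 4 genes nearest the limit on each side, the fate factors (1 is not reported here) and the runs of 3 neighbours. Genes named outside this rule were chosen after their values were seen. Current symbols came from FlyBase names (344 of 379 members matched) and RefSeq Release 6 by Entrez identifier (352). RefSeq gave gene order and Ensembl 115 gene span only. No coordinates or sequences are given. CG42509 and Glu-RIB, both members, had identical values in all 4 libraries and cannot be told apart, and PsGEF was listed under 2 identifiers. The calculation of the rule was checked on simulated data with changes of known size. Those data held counting noise but no other variation between libraries, so the check gives no rate of false calls. Alternatives were 1 or 16 units added, 2 other scalings, no minimum or a minimum level of 8, and 2-fold or 8-fold steps. Analyses used Python 3.11.15, numpy 2.4.6, pandas 2.3.3 and matplotlib 3.10.9.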

Additional observations from a re-analysis of the deposited data

How the results depend on the processing

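The number of transient genes was 363 and that of dip genes 16. It was 210 and 8 with 16 units added, 117 and 5 with a minimum level of 8 (log2), 784 and 128 with a 2-fold step, and 109 and 2 with an 8-fold step. When the step was also asked against the adult PR library, an alternative chosen after seeing the data, 224 transient and 4 dip genes were left. Both numbers stayed within 1.5 times with 1 unit added (409 and 23), with no minimum (462 and 18), with equal library totals (427 and 17) and with the median ratio to the mean library set to 1 (374 and 21). Equal totals shifted every pupal minus larval difference by -0.31 and every pupal minus adult difference by 0.83, and 316 of the 363 transient and 10 of the 16 dip genes remained. The median ratio shifted them by -0.14 and 0.24, and 342 and 14 remained. Of 154 named genes none changed direction under any setting, 17 lost the call under equal totals (sev, if, nrv2 and both His4 genes among them), 8 under the median ratio, 38 with 16 units added, 69 with a minimum level of 8, 75 with an 8-fold step and 49 when PRs were included. With 1 library per stage, none could be left out and no paired analysis was possible because no group has a second library. In pupal CCs 32 units stand for about 51 reads, and a gene listed at 0 in larval or adult CCs may have had 1 read.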

Other observations

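In 5 rows of the deposited table the gene symbol had the form of a calendar date, and 2 of these rows were transient genes. By their identifiers they are Septin4, at 7.14, 9.21 and 5.77 in larval, pupal and adult CCs, and dec (defective chorion), at 0, 5.24 and 1.77. A search of the table by symbol misses both.

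Unnamed genes were frequent: 36.9% of the transient genes carry a number as their current symbol, against 29.2% of measured genes. CG13023 and CG1850 are 2 of them, and of all members only Cht5 had a higher step. Pupal CCs also held a long noncoding RNA listed as noe, at 9.66, 12.45 and 6.44 with PRs at 9.91, and the small peptide locus pncr003:2L, at 0, 5.87 and 1.24 with PRs at 0. By chromosome the share of transient genes among measured genes ran from 3.85% on the fourth chromosome and 3.90% on 2R to 5.61% on 3R.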
